A study of Mus musculus with 33 samples.

Results

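Three-way contacts of the TEA promoter (TEAp) were compared between DP thymocytes with and without EACBE, in the 6 libraries of the series' 33 whose titles give a DP thymocyte, the TEAp bait and either EACBE genotype. Of these, 3 libraries were WT and 3 were EACBE-/-, and the 6 libraries made with the Eα bait and the 6 made with the Trav17 bait in the same 2 genotypes served for comparison. Both genotypes were Rag1-/- mice on the C57BL/6 background, so the Tcra–Tcrd locus was in its germline order in every library, and the WT animals carried both intact copies of EACBE. The mice were 3 weeks old when they received the anti-CD3 antibody 2C11, and thymi were taken 10 days later. Such DP cells arise by antibody signalling and not by selection of a Tcrb rearrangement, which limits them as a model of normal DP cells. In 3C-HTGTS, chromatin of cells crosslinked with formaldehyde (1%) was digested with MboI (200 units) and ligated, and the products that start at a bait were sequenced. Each read gave the first 2 MboI fragments joined after the bait, and hence a contact of TEAp with 2 other sites at once.

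The Tcra–Tcrd locus holds the gene segments of both the TCR α and the TCR δ chain, with the δ segments lying between the V genes and the Jα array. The enhancer Eα at its downstream end activates TEAp, the promoter at the head of the Jα array, and thereby opens the first Jα genes to rearrangement. CTCF binds CTCF-binding elements (CBEs), where it halts cohesin as it extrudes a loop, most often between CBEs that point towards each other. INT1 and INT2 are CBEs between the V genes and the Tcrd segments, TEAp holds another, and EACBE lies just beyond Eα, on the side of the housekeeping gene Dad1, which encodes a subunit of oligosaccharyltransferase, the enzyme that glycosylates nascent proteins.

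The sequences below, all from mm10 chromosome 14, come from the deleted site and from sites whose contacts are described below. Whether the contacts depend on these letters was not tested. The first is the whole MboI fragment that was missing from every EACBE-/- library, and the others are stretches of 61 bases around a CTCF-like motif in the bait fragment, in the INTs and in the fragment of the Dad1 bin that is described below. Capitals mark a match to a core of the CTCF motif, searched on both strands: 11 letters in which CA, AG and GGC follow each other with 2 free letters in each gap. The TEAp sequence is written from the minus strand, where its match lies, and the other matches lie on the plus strand.
EACBE fragment: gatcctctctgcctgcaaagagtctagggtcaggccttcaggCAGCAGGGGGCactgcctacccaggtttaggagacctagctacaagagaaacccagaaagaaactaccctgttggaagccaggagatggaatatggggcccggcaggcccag
TEAp bait fragment: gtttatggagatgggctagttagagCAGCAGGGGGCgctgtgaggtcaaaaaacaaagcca
INTs, match at 54059965: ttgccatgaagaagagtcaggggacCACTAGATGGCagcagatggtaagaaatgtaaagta
INTs, match at 54064714: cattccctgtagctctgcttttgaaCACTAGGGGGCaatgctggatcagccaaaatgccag
Dad1 bin, match at 54239240: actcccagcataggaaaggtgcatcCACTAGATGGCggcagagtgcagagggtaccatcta

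The EACBE fragment spans chr14:54228261-54228414 (154 bases) and the other windows are chr14:54153009-54153069, chr14:54059940-54060000, chr14:54064689-54064749 and chr14:54239215-54239275. The bait primer starts at 54153052, in the MboI fragment from 54152642 to 54153133, which also holds the TEAp match. The 11 letters of the match were identical in the EACBE and TEAp fragments, on opposite strands, and those of the INTs match at 54059965 were identical to those of the Dad1 match shown. The INTs window holds 1 more match, at 54055228, and the Dad1 bin 1 more, at 54235958 on the minus strand. The motif is short and common: the 560 kb region held 85 matches, and 6.41% of 32851 mouse promoters of 300 bases (RefSeq, mm10) held at least 1. A match is a description of the letters and not a measured CTCF site.

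The region of analysis ran from 53740001 to 54300000 and covered the V genes from Trav16 on, the INTs, the Tcrd segments, TEAp, the Jα array, Eα and 70 kb beyond it. The WT libraries held 66542, 52253 and 76656 reads with both fragments in the region and the EACBE-/- libraries 56636, 51035 and 32052. These came from 15753 to 24542 distinct pairs in WT and from 13263 to 20348 in EACBE-/-. Distinct pairs differ in a fragment or in the span aligned within it, so the same fragment pair can count more than once. Over chromosome 14, a distinct pair was read 4.06, 2.84 and 3 times in the WT libraries and 2.67, 2.47 and 2.34 times in the EACBE-/- libraries, so the WT libraries held more repeated reads. The main tests below were also computed with every distinct pair counted once. The bins of 20 kb, and the fits with some reads left out, were made from all reads only. The reads carry no molecular identifiers. The labels do not say whether libraries came from separate mice, so the p-values measure the spread between libraries.

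The fragment called the EACBE fragment here was picked by its reads. It lies in the Eα window (54220001 to 54230000), with at least 10 reads in each WT library of the TEAp bait and none in the EACBE-/- libraries of that bait. Its zeros with the TEAp bait follow from that choice and are no check of the labels. Its reads on chromosome 14 numbered 848, 804 and 1136 in WT and 0, 0 and 0 in EACBE-/-, where 3 reads would have made at most 0.0032% of the fragments, a limit that covers counting error only. It was at least 217-fold lower in EACBE-/- (against 3 reads per library). The same fragment was at 0 in the 3 EACBE-/- libraries of the Eα bait and the 3 of the Trav17 bait, at least 82.6-fold and 35.8-fold lower than in their WT libraries. The EACBE-/- libraries of the Eα and Trav17 baits played no part in the choice of the fragment, and in them the genotype in the label matched the reads.

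The 2 fragments just upstream of the EACBE fragment were captured less often in EACBE-/- as well. The fragment next to it, from 54227585 to 54228260, made 0.198%, 0.228% and 0.185% of the region's fragments in WT and 0.125%, 0.0676% and 0.0874% in EACBE-/-. The groups did not overlap, and it fell by 1.12 on the log2 scale (SE 0.26, adjusted p = 0.00655, edgeR quasi-likelihood test with Benjamini-Hochberg adjustment). The next one, from 54227255 to 54227584, which holds an Eα bait primer, fell by 0.82 (adjusted p = 0.0113). The fragment on the Dad1 side, from 54228415 to 54228692, had a log2 difference of -0.81 that missed the threshold (adjusted p = 0.0696), and the one after it, to 54229984, had a log2 difference of 0.94 (adjusted p = 0.0832), its EACBE-/- libraries all above its WT libraries. The 2 fragments farther upstream, from 54225118 to 54227254, overlapped between the genotypes. The fragments directly beside the absent one thus had lower shares in EACBE-/- on both sides, past the threshold only on the Eα side. The ends of the deletion were not determined. Whether the deletion itself altered the capture of these neighbours, apart from their contact with TEAp, was not tested. In the 5 kb bin that holds these fragments, which ends at 54230000, the share was 1.53%, 1.81% and 1.83% in WT and 0.892%, 0.833% and 0.766% in EACBE-/- (log2 -1.05, SE 0.10, adjusted p = 1.04e-06), and without the reads that hold the EACBE fragment the log2 change was -0.53 (adjusted p = 0.00128).

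**Figure D1:**
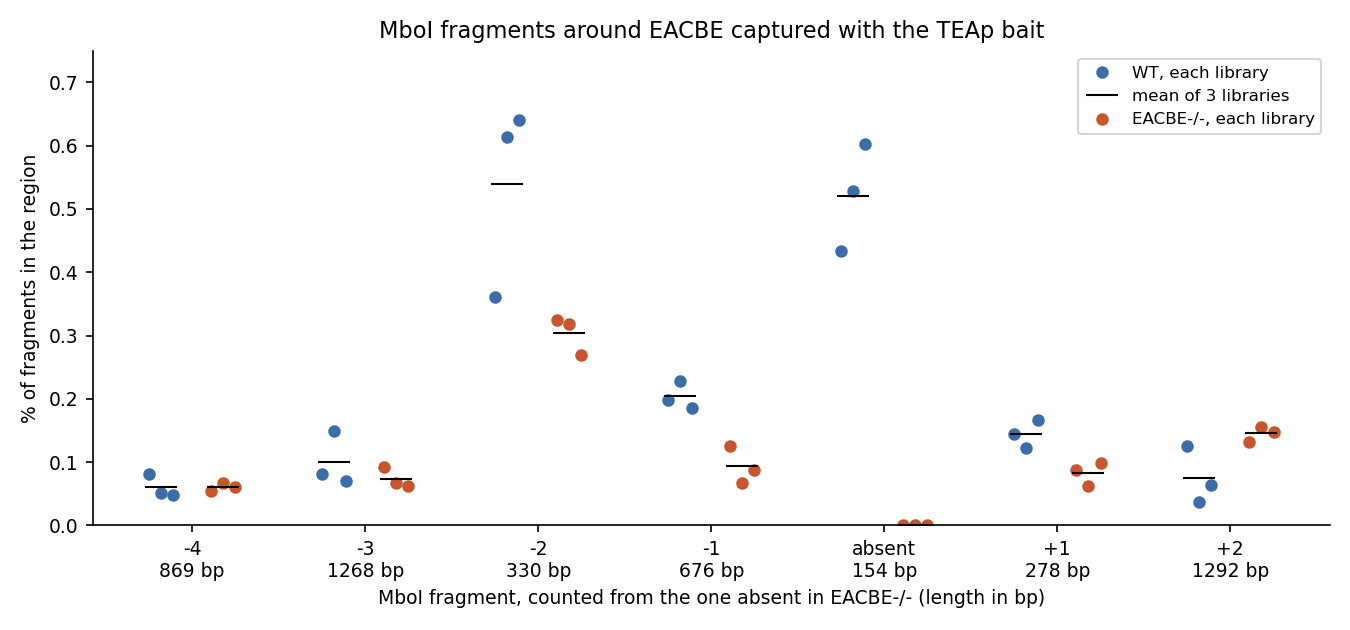
MboI fragments around EACBE, in order along the chromosome and labelled by their place from the fragment absent in EACBE-/- and their length in bp; the y axis is the percentage of the region's fragments, points are libraries and dashes the means of 3. The absent fragment is at 0 in the 3 EACBE-/- libraries, and the 2 fragments before it are lower in EACBE-/- than in WT.

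Contacts of TEAp lay further downstream in EACBE-/-. The share of reads with at least 1 fragment in the 70 kb downstream of Eα was 8.29%, 7.49% and 7.64% in WT and 19.1%, 20.2% and 19.7% in EACBE-/-. The EACBE-/- mean was 2.52-fold the WT mean, and no library came near the other group. Reads with both fragments downstream of the bait bin made 13.4%, 13.7% and 12.1% in WT and 20.2%, 21.7% and 21.8% in EACBE-/-. Reads with both fragments upstream of it, on the side of the V genes, made 63.8%, 63.9% and 65.4% in WT and 53.6%, 52.7% and 53.7% in EACBE-/-. The upstream side held most reads in both genotypes, with a lower share in EACBE-/-. Of the 11 classes of reads examined, 10 had groups that did not overlap, each at p = 0.1 in the exact two-sided permutation test (0.11 after adjustment over the 11), the smallest p that 3 against 3 libraries can give.

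Contacts of Eα with the V genes and the INTs were the classes with the lowest share in EACBE-/- relative to WT. Reads with 1 fragment in the Eα window (the 10 kb from Trac to EACBE) and 1 in the proximal V genes (53800001 to 54055000) made 1.12%, 0.991% and 1.28% in WT and 0.486%, 0.484% and 0.481% in EACBE-/-, a log2 ratio of -1.23. The EACBE fragment lies in that window, and without the reads that hold it, in either genotype, the log2 ratio was -0.84. Reads that joined the INTs (54055001 to 54070000) to the Eα window made 0.875%, 0.991% and 0.801% in WT and 0.553%, 0.462% and 0.406% in EACBE-/-, a log2 ratio of -0.91, or -0.68 without the EACBE fragment. Both log2 ratios were thus also below 0 where the reads of the EACBE fragment were left out. The fragments just upstream of it, which were captured less often in EACBE-/-, were kept.

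Reads that joined the INTs to the proximal V genes were also less common, while those that joined the INTs to the Tcrd segments were not. The first class made 7.42%, 7.73% and 8.21% in WT and 5.84%, 5.19% and 5.72% in EACBE-/- (log2 ratio -0.48). The second, with a fragment between 54070001 and 54150000, made 7.90%, 7.59% and 8.06% in WT and 7.87%, 7.22% and 7.93% in EACBE-/-, and its groups overlapped (exact permutation test, p = 0.6). A share of the region is lower where another part of the region holds more reads, so the shares were also taken over the reads with no fragment downstream of Eα. On that scale both fragments upstream had a log2 ratio of -0.07, INTs with proximal V -0.28, Eα with proximal V -1.03 and INTs with Tcrd 0.17, and the class with 1 fragment on each side of the bait, whose log2 ratio was 0.19 over all reads, had -0.04. Of these, both fragments upstream, INTs with V and Eα with V kept their sign, and the first was close to 0.

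**Figure D2:**
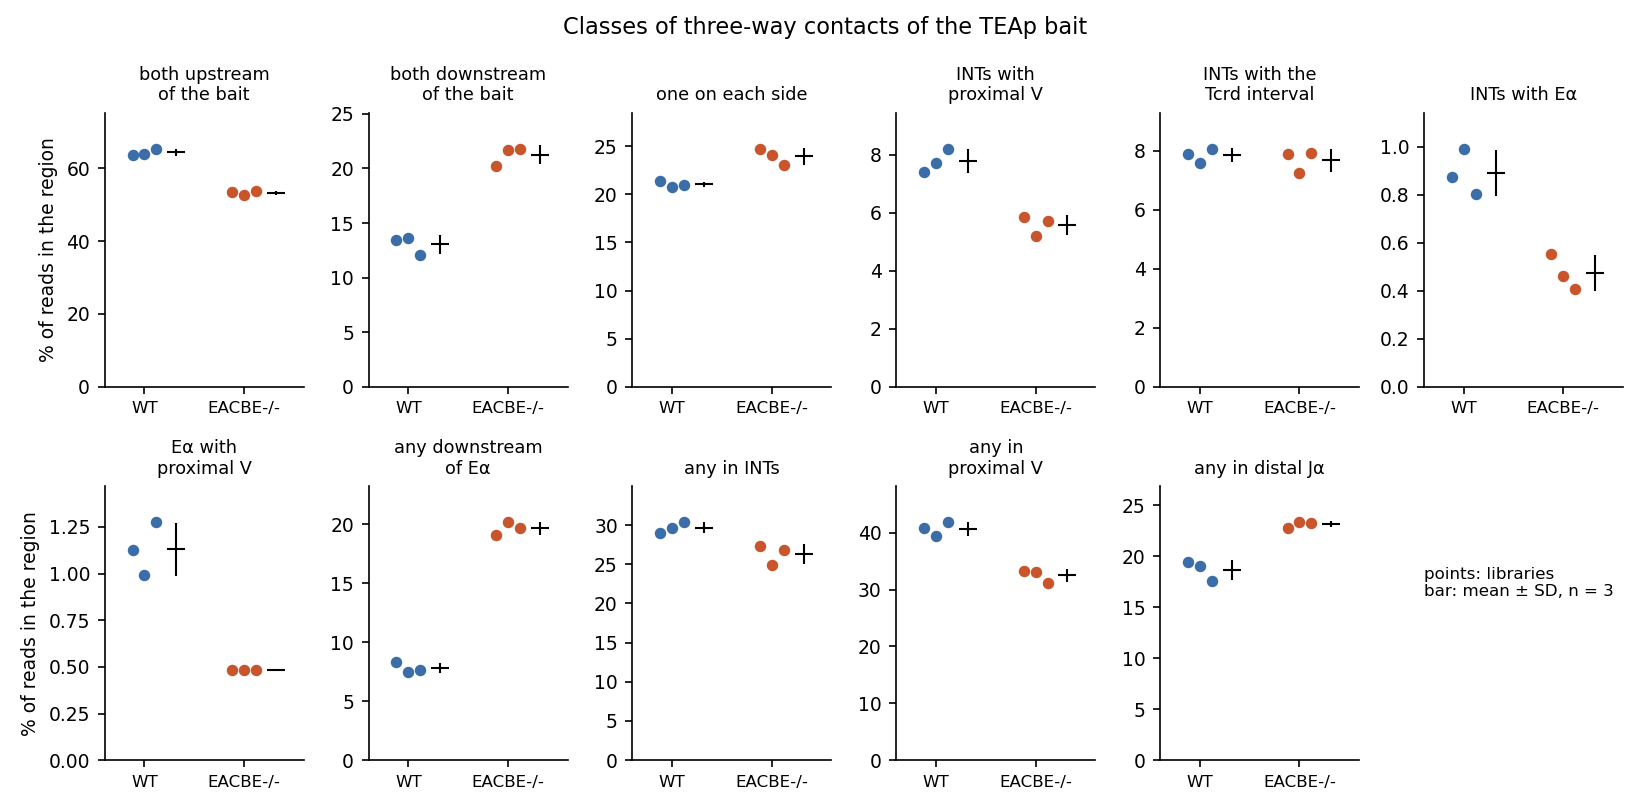
Share of the region's reads (y axis, %, each panel with its own scale from 0) in 11 classes of three-way contact of TEAp; points are libraries, bars the mean ± SD of 3. The libraries of the genotypes are apart in every panel except INTs with the Tcrd interval, and the class with any fragment downstream of Eα is 7.49% to 8.29% in WT and 19.1% to 20.2% in EACBE-/-.

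At 5 kb, 18 of 110 bins were higher in EACBE-/- (16.4%) and 25 were lower (22.7%) at an adjusted p under 0.05 (edgeR quasi-likelihood test). Over the reads with no fragment downstream of Eα, 14 of 96 bins were higher and 17 lower. Of the bins called before and still tested, 24 kept the call on that scale and 8 lost it. Of the 14 bins downstream of Eα, 11 rose, with a median log2 change of 1.19 over the 14 against -0.12 over all 110 bins. The bin of the 3' end of Dad1, 54235001 to 54240000, stood out by level: it held 1.69%, 1.602% and 1.37% of fragments in WT and 4.66%, 5.39% and 5.43% in EACBE-/-. The groups were far apart, and the log2 change was 1.73 (SE 0.09, adjusted p = 4.2e-09). The next 2 bins of the Dad1 gene rose by 1.59 and 1.75, and the bin that holds both the Dad1 promoter and the start of Abhd4, a gene of the α/β hydrolase family, rose by 1.34. Beyond these, the Abhd4 bins 54255001 and 54260001 rose by 1.00 and 0.96, the bin 54275001 at the odorant receptor gene Olfr49 by 1.05, and the bin 54285001 by 1.71, from 0.120%, 0.0785% and 0.131% to 0.401%, 0.304% and 0.385%. The bin between Eα and Dad1, 54230001 to 54235000, rose by 0.76. Among the 3 that did not pass are the last bins, 54290001 and 54295001, where no library of either genotype exceeded 0.0203%.

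In distal Jα (54165001 to 54220000) 6 of 11 bins rose and none fell, and all 11 log2 values lay above 0 (0.16 to 0.57, median 0.29). The bin of Traj47 to Traj43 made 2.46%, 2.59% and 2.07% in WT and 3.18%, 3.51% and 3.91% in EACBE-/- (log2 0.57, adjusted p = 0.000325). The bin of Traj39 to Traj34 rose by 0.57 and that of Traj18, the Jα gene used by invariant NKT cells, by 0.49. The bin of Traj61 to Traj56, the first Jα genes next to TEAp, instead fell, from 2.56%, 2.77% and 2.49% to 2.08%, 2.07% and 2.47% (log2 -0.24, adjusted p = 0.037), and its groups were separated by a narrow gap. The Trac bin, the constant region of the α chain, had a log2 difference of 0.20 that missed the threshold (adjusted p = 0.115).

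Upstream, the share of TEAp contacts with the V genes fell over a broad span. From Trav17 to Trav21, 8 of 20 bins fell and none rose (median log2 -0.38), and in the next 100 kb, which holds Trdv2-1, Trdv2-2 and Trav23, 9 of 19 fell and none rose (median -0.37). The Trav17 bin went from 0.373%, 0.415% and 0.428% to 0.257%, 0.222% and 0.172% (log2 -0.89, adjusted p = 0.00127). The Trav18 bin went from 1.42%, 1.49% and 1.44% to 1.04%, 0.807% and 0.805% (log2 -0.71), and the Trdv1 bin fell by 0.84, the Trdv2-1 bin by 0.78, the Trav21 bin by 0.43, the Trav23 bin by 0.40 and the Trdv2-2 bin by 0.37. The bin of Trav3-4 and Trav12-4, upstream of Trav17, fell by 0.87. Trdv3 fell by 0.56, from 1.54%, 1.502% and 1.44% to 1.03%, 1.04% and 0.964%, the 1 call among the 11 bins from 54000001 to 54055000. Trav19 had a log2 difference of -0.38 (adjusted p = 0.0914), with overlapping groups.

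The INTs bin 54060001 was the most frequent partner of TEAp in the 3 WT libraries, and in 2 of the 3 EACBE-/- libraries the bin 54125001, beside Trdd2, was above it. That second bin held 7.19%, 7.58% and 7.32% in WT and 7.39%, 7.48% and 7.76% in EACBE-/-, and overlapped (log2 0.03, SE 0.06). The INTs bins 54055001 and 54060001 fell by 0.27 and 0.30, the second from 8.85%, 9.98% and 9.67% to 8.21%, 7.25% and 7.67% (adjusted p = 0.00403). These are shares of all the region's fragments, of which the downstream flank held more in EACBE-/-. The other INTs bin, 54065001, overlapped between the genotypes (log2 -0.01, SE 0.08). In single MboI fragments, 54 of 1146 rose (4.71%) and 26 fell (2.27%), and 93 rose and 57 fell with distinct pairs. The count that rose was 23 without EACBE-/- replicate 2 and 35 without replicate 3, and the count that fell was 2 and 11, and 14 without WT replicate 2. Of the INTs fragments 1 was among them, from 54058657 to 54059419 (log2 -0.86, adjusted p = 0.00655). The fragment with the INTs match at 54059965 had a log2 difference of -0.50 (adjusted p = 0.159). The fragment with the match at 54064714, from 54064534 to 54064731, went from 1.34%, 1.31% and 1.25% to 1.001%, 0.964% and 0.928%, a log2 difference of -0.43 with groups apart that did not pass (adjusted p = 0.0697). The Trdd2 bin, a Dδ segment between the INTs and TEAp, fell by 0.42 (adjusted p = 0.00105), and the Trdc bins, the constant region of the δ chain, overlapped between the genotypes.

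The fragments that rose most clearly lay in a run across Dad1. The fragment from 54239061 to 54239209 went from 0.436%, 0.333% and 0.322% to 1.08%, 1.25% and 1.37% (log2 1.76, adjusted p = 4.61e-08). Its neighbour, which holds the Dad1 bin sequence shown above, went from 0.115%, 0.155% and 0.0848% to 0.263%, 0.255% and 0.225% (log2 1.07, adjusted p = 0.00563). In both, every EACBE-/- library was above every WT library. The fragment with the other match of that bin, from 54235688 to 54236725, rose by 1.53 (adjusted p = 1.45e-06). The fragments from 54238530 to 54238624 and from 54236748 to 54236858 rose by 2.04 and 1.83, and that from 54249555 to 54250242, near the 5' end of the gene, by 3.57 from 5, 5 and 6 reads to 73, 44 and 27. At the far end of the region, the fragment from 54286604 to 54286711 had 1, 1 and 0 reads in WT and 28, 31 and 22 in EACBE-/-.

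**Figure D3:**
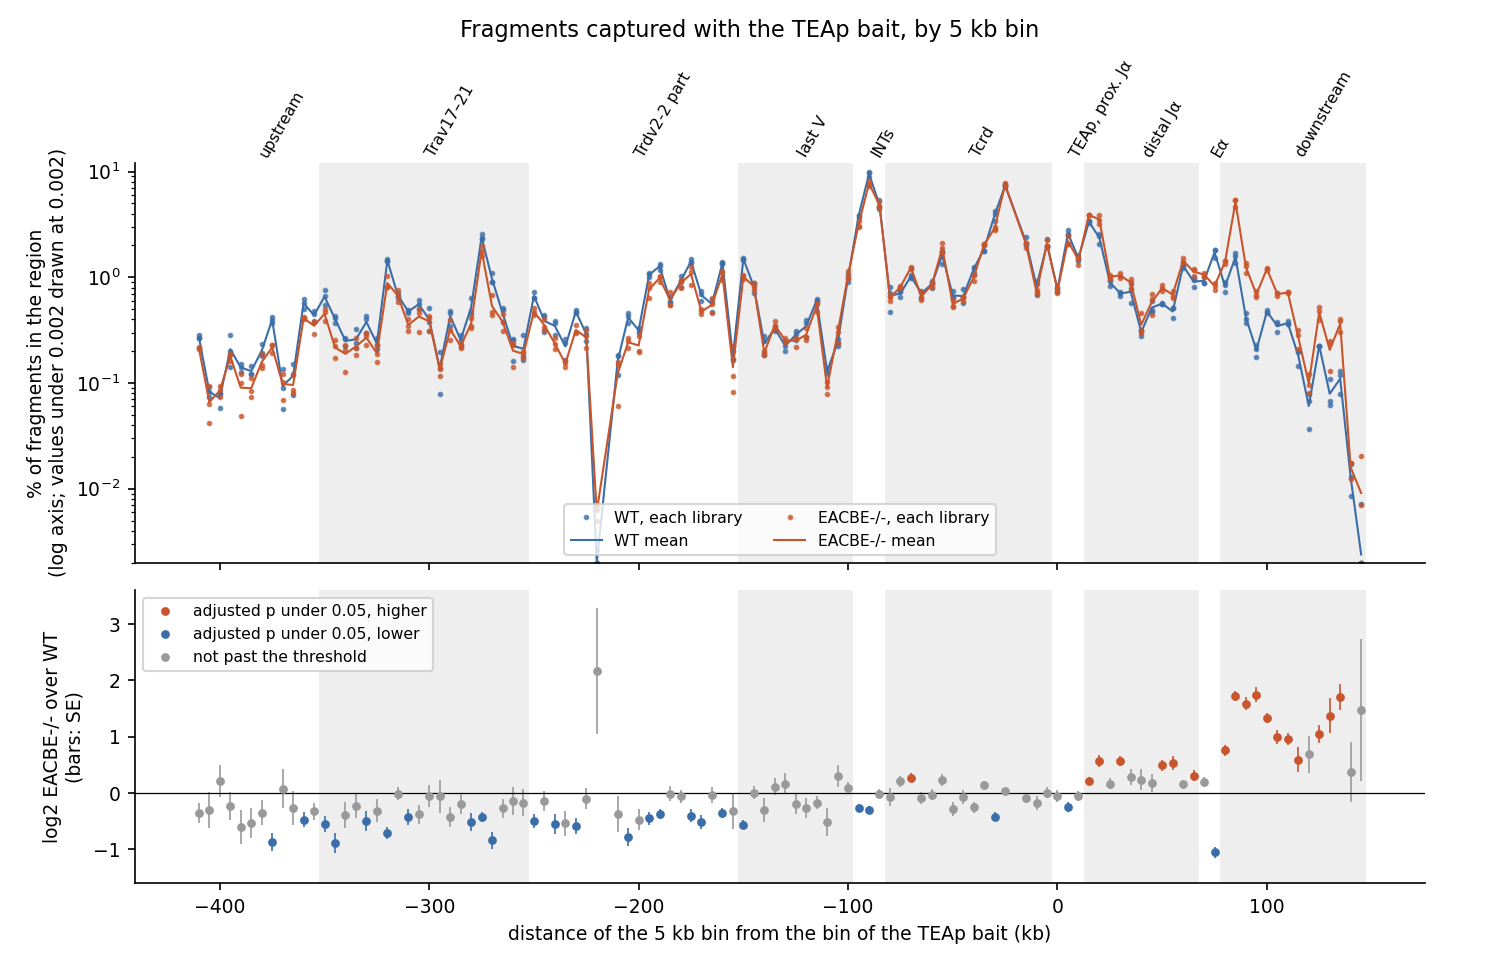
Fragments captured with the TEAp bait per 5 kb bin; the x axis is the distance from the bait's bin in kb, the upper y axis the percentage of the region's fragments on a log scale for each library and the group means, and the lower y axis the log2 change with its SE. Bins past the threshold are higher downstream of Eα, in the distal Jα array and in 1 bin of the Tcrd interval. They are lower over the V genes, in 2 INTs bins and at the bins of Trdd2, of Traj61 to Traj56 and of EACBE.

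Pairs of segments give the partner of each contact. The region was divided into 10 segments and hence 55 pairs, of which 10 rose (18.2%) and 24 fell (43.6%) at an adjusted p under 0.05. Of the 10 pairs that contain the downstream flank, 9 rose, and the other that rose was distal Jα with itself. Downstream with downstream made 1.95%, 1.94% and 1.83% of reads in WT and 5.29%, 5.63% and 5.29% in EACBE-/- (log2 1.50, SE 0.07, adjusted p = 1.3e-13). Distal Jα with downstream made 0.911%, 0.589% and 0.569% in WT and 2.67%, 2.80% and 3.30% in EACBE-/-, the largest log2 change of the 55, 2.08 (SE 0.15, adjusted p = 7.85e-11). Tcrd with downstream rose by 1.49, TEAp and the proximal Jα genes with downstream by 1.42 and Trav17 to Trav21 with downstream by 0.81, and INTs with downstream rose from 1.36%, 1.14% and 1.23% to 2.82%, 2.53% and 3.095% (adjusted p = 2.97e-09). In each of these the libraries of the genotypes were apart. The pair of Eα with downstream was the exception: it made 0.397%, 0.725% and 0.556% in WT and 0.574%, 0.607% and 0.583% in EACBE-/-, with overlapping groups. Without reads of the EACBE fragment this pair had a log2 change of 0.96 (adjusted p = 0.00188).

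Pairs with Eα moved the other way. Of the 10 pairs that contain the Eα window, 7 fell and none rose. Trav17 to Trav21 with Eα made 0.5095%, 0.358% and 0.605% in WT and 0.184%, 0.133% and 0.1685% in EACBE-/- (log2 -1.61, SE 0.26, adjusted p = 1.82e-05). The Trdv2-2 part with Eα fell by 1.08, INTs with Eα by 0.90, and the Tcrd segments with Eα by 0.78. Without the EACBE fragment these 4 log2 changes were -1.26, -0.62, -0.67 and -0.49, each with an adjusted p under 0.05 (0.000689, 0.0331, 0.00526 and 0.0116). The other 3, TEAp and the proximal Jα genes, the most proximal V part and the upstream flank with Eα, lost the call without it (adjusted p = 0.0959, 0.121 and 0.099). Distal Jα with Eα, by contrast, made 0.999%, 0.871% and 0.908% in WT and 1.04%, 1.154% and 1.09% in EACBE-/-, with groups apart at a log2 difference of 0.24 that did not pass (adjusted p = 0.104). It passed as higher without the EACBE fragment (0.40, adjusted p = 0.0133), with TMM (0.57, adjusted p = 0.00065) and with DESeq2 (0.50, adjusted p = 0.000366). The downstream flank with Eα also passed as higher without that fragment (0.96, adjusted p = 0.00188).

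The calls depend on the scale. With TMM factors, which centre on the middle of the 55 pairs, the median log2 change moved from -0.29 to 0.04, and the calls were 16 higher and 6 lower. With DESeq2 they were 16 higher and 10 lower. Trav17 to Trav21 with INTs fell on each scale (log2 -0.76, and -0.43 with TMM), as did Trav17 to Trav21 with TEAp and the proximal Jα genes (-1.03, and -0.70 with TMM). INTs with Tcrd had a log2 difference of -0.03 (SE 0.06) that was 0.30 with TMM (adjusted p = 0.000872), and the Tcrd segments with themselves -0.04 that was 0.29 with TMM. INTs with INTs and INTs with TEAp and the proximal Jα genes fell by 0.39 and 0.30 relative to all reads, and had -0.06 and 0.03 with TMM, which did not pass.

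**Figure D4:**
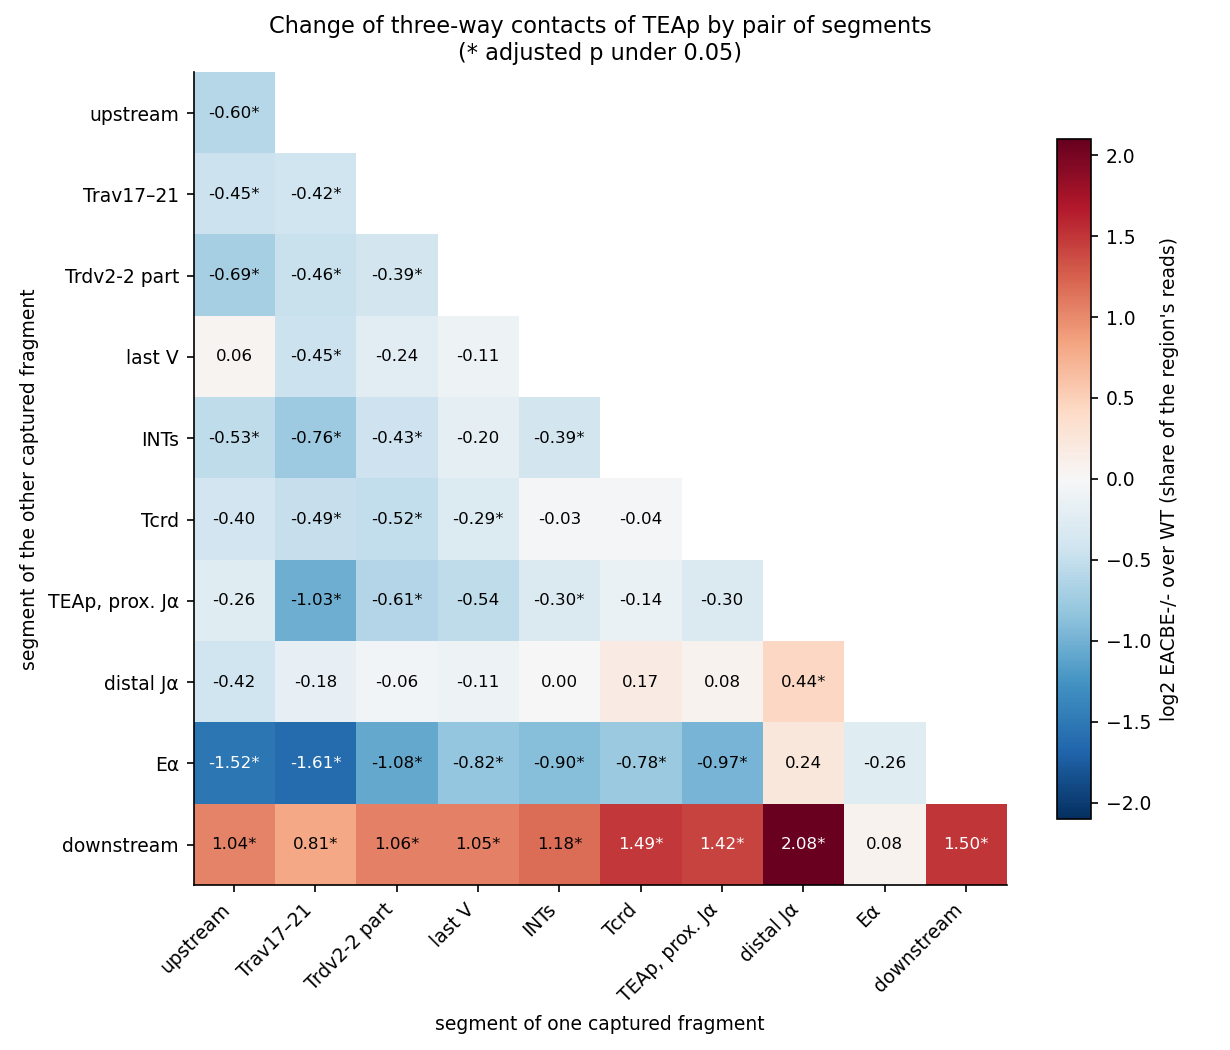
Log2 change (EACBE-/- over WT, share of the region's reads) for the 55 pairs of 10 segments, each cell the pair of segments that held the 2 captured fragments of a read; an asterisk marks an adjusted p under 0.05. The row of the downstream segment is positive (0.08 to 2.08). The pairs of Eα with the segments from the upstream flank to TEAp and the proximal Jα genes are negative (-0.78 to -1.61), and that with distal Jα is 0.24.

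Among pairs of single 5 kb bins the downstream flank was again the partner in most calls. Of 3521 bin pairs, 34 rose (0.966%) and 6 fell (0.17%), and DESeq2 called 79 higher and 27 lower. The count that rose was 22, 19 and 21 without EACBE-/- replicates 1, 2 and 3, and the count that fell was 1 without EACBE-/- replicate 2 and 2 and 12 without WT replicates 2 and 1. Of the 34, 32 had at least 1 bin downstream of Eα, where 621 of the 3521 pairs tested have one, and the other 2 joined distal Jα bins to each other. The Dad1 bin 54235001 with itself was read 327, 371 and 370 times in WT and 877, 1072 and 597 times in EACBE-/- (log2 1.71, SE 0.16, adjusted p = 1.16e-21). With the Trac bin it was read 3, 5 and 2 times in WT and 98, 77 and 15 times in EACBE-/- (log2 4.49, adjusted p = 4.84e-08), and with the bin of Traj47 to Traj43, 1, 14 and 32 times in WT and 93, 124 and 98 times in EACBE-/- (log2 3.32). With the bin 54125001, beside Trdd2, it was read 16, 11 and 28 times in WT and 123, 103 and 93 times in EACBE-/- (log2 3.10). In all 4 pairs the libraries of the genotypes were apart in share.

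Reads that joined TEAp, the Dad1 bin and an upstream element rose too. The Dad1 bin with the 3 INTs bins rose by 1.29, 1.25 and 1.77, the last from 88, 43 and 60 reads to 151, 163 and 134. The first, 54055001, lost its call without WT replicate 2 (adjusted p = 0.247) or 3 (0.173) and without EACBE-/- replicate 1 (0.439) or 2 (0.229). It was also lost with no filter (0.0792) and without the reads of the EACBE fragment (0.0566). The second, 54060001, lost its call without WT replicate 3 (0.117) or EACBE-/- replicate 3 (0.103). With the Trdv2-2 bin the Dad1 bin was read 0, 0 and 10 times in WT and 19, 38 and 42 times in EACBE-/- (log2 4.01, adjusted p = 0.000505). That value was 3.43 to 8.35 when leaving out each library, highest without WT replicate 3, which held all its WT reads, and the call was lost without EACBE-/- replicate 3 (adjusted p = 0.18) and with DESeq2 (adjusted p = 0.171). With the bin of Traj61 to Traj56 it rose by 2.25, from 69, 12 and 37 reads to 148, 130 and 103. The bin 53790001 with the Dad1 bin, from 0, 0 and 1 reads to 7, 13 and 28, rests on few reads and also lost the call without EACBE-/- replicate 3 (adjusted p = 0.571). The called partners of the Dad1 bin lay in the V side (3 bins), the INTs, the Tcrd interval, the TEAp and Jα bins, the Trac bin and the downstream flank, itself included.

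The 6 bin pairs that fell lay among the V genes, the INTs, Trdd2 and Eα. Trdv1 with the INTs bin 54060001 was read 133, 80 and 139 times in WT and 45, 13 and 14 times in EACBE-/- (log2 -1.83, SE 0.45, adjusted p = 0.00634). Trdv3 with the INTs bin 54065001 was read 103, 95 and 88 times in WT and 20, 31 and 15 times in EACBE-/- (log2 -1.65, adjusted p = 0.0495). This call was lost with TMM (adjusted p = 0.0634), with distinct pairs (0.123) and on leaving out each library in turn (0.0515 to 0.284). The INTs bin 54060001 with itself fell by 0.65 and with the bin 54055001 by 0.80, and the Trdd2 bin with itself fell by 0.86. The pair with 54055001 lost its call with distinct pairs (adjusted p = 0.124), without WT replicate 2 (0.531) and without each EACBE-/- replicate (0.0849 to 0.123). Without EACBE-/- replicate 2 the calls were also lost for Trdv1 with 54060001 (0.159), 54060001 with itself (0.0598) and Trdd2 with itself (0.0786). The last of the 6 was the EACBE bin with its downstream neighbour, from 63, 96 and 126 reads to 24, 19 and 7 (log2 -2.10). Without the reads that hold the EACBE fragment its log2 difference was -0.74 and did not pass (adjusted p = 0.798), and the call was also lost without WT replicate 2 (0.105), WT replicate 3 (0.0527) or EACBE-/- replicate 3 (0.0538).

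The other fragment of a read also came from different sites once 1 site was given. Among reads with a fragment in the INTs, the other fragment was in the downstream flank in 4.70%, 3.84% and 4.05% in WT and in 10.3%, 10.2% and 11.5% in EACBE-/-. It was in the Eα window in 3.02%, 3.35% and 2.64% in WT and in 2.03%, 1.86% and 1.51% in EACBE-/-, and in the proximal V genes in 25.6%, 26.1% and 27.1% in WT and in 21.4%, 20.9% and 21.3% in EACBE-/-. Among reads with a fragment in the Trdd2 bin the downstream flank took 1.96%, 2.24% and 3.08% in WT and 7.09%, 8.79% and 5.70% in EACBE-/-, the largest ratio of the 28 site pairs computed (2.97-fold). The share of Trdd2 reads that also held the INTs was 23.4%, 19.8% and 18.7% in WT and 24.0%, 20.1% and 18.2% in EACBE-/-, and these overlapped. Groups that did not overlap all had p = 0.1 in the exact permutation test, 0.175 after adjustment over the 28. Over all the region's reads the share with a fragment in the downstream flank was 2.52-fold higher in EACBE-/-. Among INTs reads the ratio was 2.54 and among proximal V reads 2.45, and among Eα reads it was 1.5. The rise of the downstream flank among INTs reads was thus close to that of the region as a whole. The shares that involve Eα here count the reads of the EACBE fragment, which is absent in EACBE-/-. As a share of the region, the pair of Eα with downstream had a log2 change of 0.08 with those reads and 0.96 without them.

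Seen over the whole of chromosome 14, the gain ran well past the region and then ended. Of 940 bins of 100 kb tested, 3 rose (0.319%) and 7 fell (0.745%), all 10 between 53700001 and 54800000. The 3 that rose were neighbours: the bin of Eα, Dad1 and Abhd4 by 0.68, the next, with Oxa1l and Slc7a7, by 0.94, and the bin from 54400001, with Mmp14 and Lrp10, by 0.38. At 20 kb, 15 of 2213 bins rose (0.678%) and 17 fell (0.768%), and the 15 formed a single unbroken run from 54160001 to 54460000. It covered distal Jα, the Eα window, Dad1, Abhd4, Olfr49, Oxa1l, the amino acid transporter gene Slc7a7 and the matrix metalloproteinase gene Mmp14. The run is unbroken at this bin size only: within it, the 5 kb bin 54225001, which holds the EACBE fragment, fell by 1.05 as a share of the region. The 20 kb bin over Dad1 and the start of Abhd4 held 13010, 11790 and 12180 fragments per 1000000 of the chromosome in WT and 30430, 31220 and 29700 in EACBE-/- (log2 1.30, SE 0.07). The bin from 54320001 held 7250, 5520 and 6923 in WT and 13620, 14690 and 14190 in EACBE-/- (log2 1.11). In both the genotypes were far apart. The 20 kb bins were not computed with distinct pairs.

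The run stopped between Mmp14 and Lrp10. The bin from 54440001, in the Mmp14 gene, rose by 0.52 (adjusted p = 0.00175), and the bins from 54460001 and 54480001, with Lrp10 and Rem2, had log2 differences of -0.08 (SE 0.13) and 0.03 (SE 0.13), with overlapping groups. From there on the 100 kb bins fell, by 0.38 from 54500001 (Prmt5, Haus4 and Ajuba), by 0.52 from 54600001 (the proteasome genes Psmb5 and Psmb11) and by 0.87 from 54700001, where the values were 3440, 4917 and 3319 per 1000000 in WT and 1847, 2159 and 2365 in EACBE-/-. On the V side the 100 kb bins fell by 0.45, 0.46, 0.35 and 0.16 from 53700001 to 54100000. Reads with a fragment in the distal and central V array (52400001 to 53740000) made 2.94%, 3.21% and 3.05% of all reads in WT and 2.73%, 2.54% and 2.66% in EACBE-/-, with groups apart. Reads with a fragment between 54300001 and 55000000 made 15.03%, 14.01% and 15.5% in WT and 18.2%, 18.3% and 17.2% in EACBE-/-. Reads with a fragment farther out on either side overlapped between the genotypes (exact permutation test, p = 0.8 and p = 1).

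**Figure D5:**
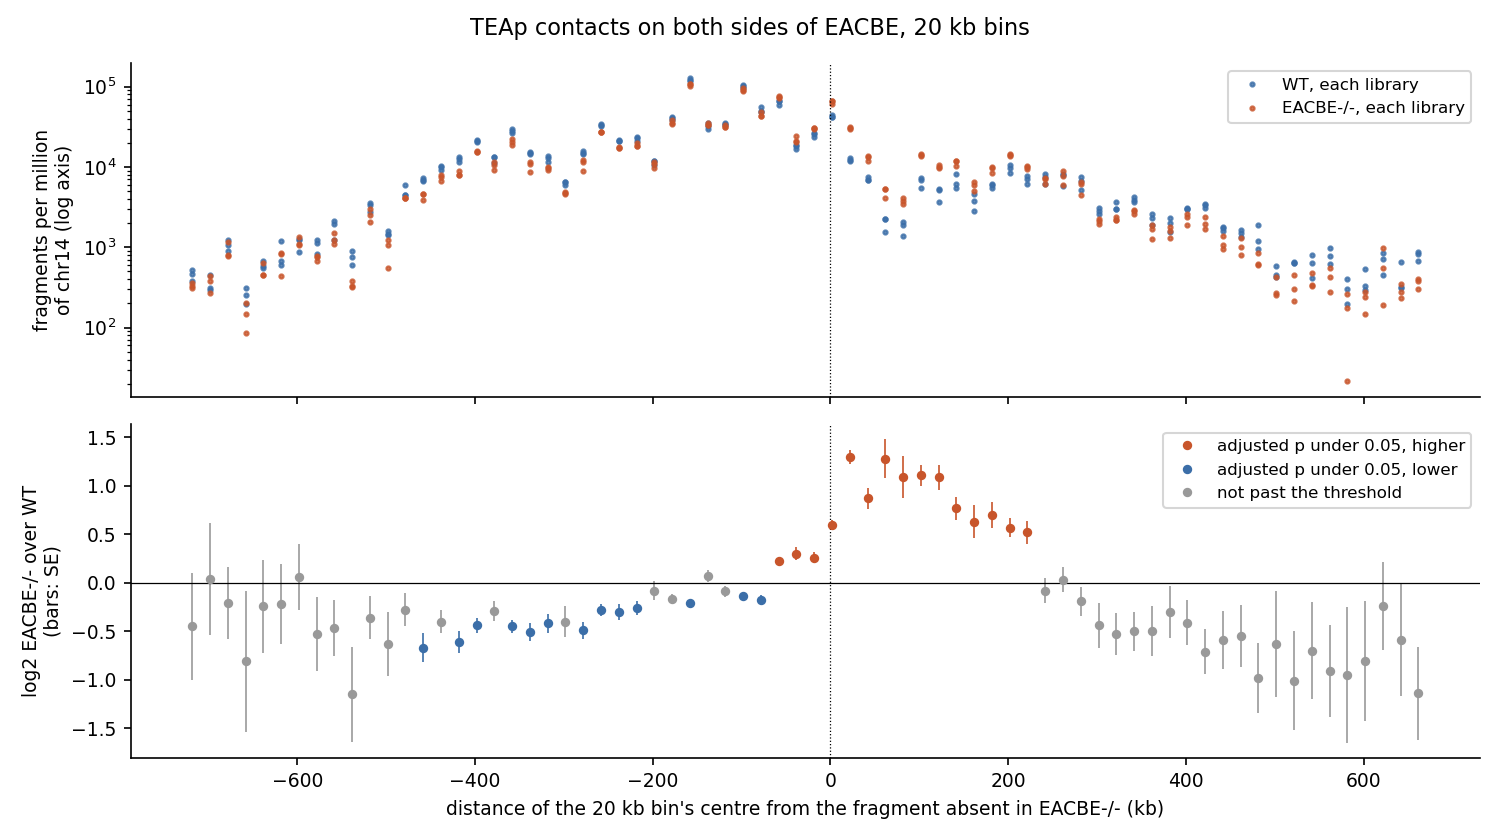
Contacts of TEAp in 20 kb bins on both sides of the fragment absent in EACBE-/- (dotted line); the x axis is the distance from it in kb, the upper y axis the fragments per 1000000 of chromosome 14 in each library on a log scale, and the lower y axis the log2 change with its SE. The 15 bins that rose form 1 unbroken run, with log2 changes from 0.22 to 1.30.

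The change seen by TEAp was set against that seen by the other baits with both genotypes, as a test of the interaction of bait and genotype over 110 bins of 5 kb. Against the Eα bait, 0 bins passed (0% called) with edgeR, 14 had an unadjusted p under 0.05, and DESeq2 called 2 lower with TEAp. The Dad1 bin, for example, was 2.02%, 2.36% and 2.002% in WT and 7.55%, 5.47% and 5.43% in EACBE-/- with the Eα bait, and the log2 change with TEAp minus that with Eα was 0.20 (SE 0.19). That no bin passed does not show that the baits responded alike, since the EACBE-/- libraries of Eα had 14307 to 27575 reads on chromosome 14 against 46938 to 85837 for TEAp.

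Against the Trav17 bait, the change was higher with TEAp in 9 of 110 bins (8.18%) and lower in 6 (5.45%). With TMM it was 8 higher and 2 lower, and with DESeq2 14 higher and 4 lower. For the Dad1 bin the Trav17 bait had 0.823%, 1.11% and 0.884% in WT and 1.497%, 1.48% and 1.66% in EACBE-/-, higher in every EACBE-/- library, and the log2 change with TEAp was 1.01 above that with Trav17 (SE 0.19, adjusted p = 0.000583). In the bin of Traj39 to Traj34 the Trav17 bait had 0.513%, 0.435% and 0.601% in WT and 0.302%, 0.503% and 0.404% in EACBE-/-, with overlapping groups, while TEAp rose there, a difference in log2 change of 0.94. The Trav18 bin, lower with TEAp, had 3.15%, 3.07% and 3.81% in WT and 3.61%, 3.18% and 4.28% in EACBE-/- with Trav17, overlapping, a difference of -0.85 (SE 0.19, adjusted p = 0.00378). The Dad1 bin was thus higher in EACBE-/- with both baits, by more with TEAp, and the change at Trav18 and Trav21 was lower with TEAp. It was lower in the Trav17 bin too. That bin holds the MboI fragment of the Trav17 bait itself (53804241 to 53805068, binned by its end), and the Trav18 bin, from 53830001, lies near that bait. The WT library 3 of the Trav17 bait held 10.05 reads per distinct pair, and without it 8 bins were higher and 6 lower, with the Trav17 bin no longer called (adjusted p = 0.0702). With distinct pairs counted once 10 were higher and 13 lower. The counts rest on single TEAp libraries as well: leaving out each in turn gave 2 to 6 higher and 2 to 4 lower, with the fewest calls (2 and 2) without EACBE-/- replicate 2, and the Dad1 and Trav18 bins were called each time.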

How the data were processed

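3C-HTGTS reads of 6 TEAp libraries (3 WT, 3 EACBE-/-) and of 12 libraries of the Eα and Trav17 baits were used. The authors trimmed reads with fastp 0.20.0 and cutadapt 1.18, split them at MboI sites, aligned the fragments to MboI-digested mm10 with Bowtie2 2.4.5 and deposited, without normalization, counts of reads per pair of 5 kb bins and the first 2 fragments of each read. Their scaled values were not used. The deposited counts equalled the reads binned again, by fragment end, in all 18 libraries. Counts per single bin, segment pair, MboI fragment and 20 or 100 kb bin were made from the reads. They were tested with edgeR 4.0.16 in R 4.3.3 (quasi-likelihood, with the reads of the region, or of chromosome 14 for the larger bins, as library size, at least 10 reads summed, Benjamini-Hochberg threshold 0.05), after tests on simulated data. Shares were compared with exact permutation tests (scipy 1.17.1). The windows of INTs, TEAp and Eα follow the study's drawings. Genes are from the mm10 annotation.

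Named features are the elements the study names at the locus, up to 10 features in each direction, by size of change, that passed the threshold with groups apart, and bins beside them. The members, windows and lists were chosen with earlier results of these data known. Alternatives were TMM, DESeq2 1.42.0, no filter, distinct pairs, 10 kb bins, the chromosome 14 total, leaving out single-bin pairs, reads downstream of Eα or each library, and a replicate block. Leaving out reads of the EACBE fragment, 20 kb bins, distinct pairs with TMM and leaving out a Trav17-bait library were added after seeing the data. Same-numbered libraries did not deviate together (correlations -0.05, 0.09 and -0.05 over 107 bins).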

Additional observations from a re-analysis of the deposited data

Results flagged for a closer look

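The following 15 bins of 5 kb had a change with EACBE deletion that differed between the TEAp and Trav17 baits in the interaction term of edgeR's quasi-likelihood fit (adjusted p under 0.05). Values are the log2 change with TEAp minus that with Trav17. Over V genes the difference was -0.73 in the bin 53775001 (Trav3-4 and Trav12-4), -0.65 in 53805001 (Trav17), -1.15 in 53820001, -0.85 in 53830001 (Trav18), -0.56 in 53875001 (Trav21) and -0.93 in 53905001. The bin 53805001 holds the MboI fragment of the Trav17 bait. In the Tcrd interval the difference was 0.85 in 54115001. In the Jα array it was 0.77 in 54160001 (Traj55 to Traj53), 0.60 in 54165001 (Traj52 to Traj48), 0.69 in 54170001 (Traj47 to Traj43) and 0.94 in 54180001 (Traj39 to Traj34), and in the Trac bin it was 0.60. Downstream of Eα it was 1.01 in 54235001 and 1.06 in 54240001, both in Dad1, and 0.67 in 54250001 (Dad1 and Abhd4).

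The bins 53820001 and 53905001, for which no gene is named here, had levels of 1.34% and 0.654% in WT and 2.14% and 1.14% in EACBE-/- with the Trav17 bait (means of 3 libraries).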

How the results depend on the processing

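Leaving out each library in turn gave 15 to 19 higher and 20 to 26 lower single bins, 10 higher and 16 to 25 lower segment pairs, 19 to 40 higher and 1 to 12 lower bin pairs, 23 to 63 higher and 2 to 30 lower fragments, and 3 to 4 higher and 6 to 7 lower bins of 100 kb. For the difference between baits it gave 0 higher and 0 to 1 lower against Eα, and 2 to 6 higher and 2 to 4 lower against Trav17. Bins of 10 kb gave 11 higher single bins and 14 lower bin pairs, and bins of 20 kb on the chromosome gave 15 higher and 17 lower. DESeq2 gave 79 higher and 27 lower bin pairs, 16 higher and 10 lower segment pairs, 2 lower bins against Eα and 14 higher against Trav17. TMM gave 16 higher and 6 lower segment pairs, 1 lower bin against Eα and 2 lower against Trav17, and distinct pairs with TMM 19 higher and 13 lower segment pairs. Distinct pairs gave 55 higher and 17 lower bin pairs, 93 higher and 57 lower fragments, 13 lower bins against Trav17, and a log2 ratio of 0.11 for reads with no fragment in the region. Without pairs within a single bin 3 bin pairs fell.

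Log2 changes of segment pairs that turned were INTs with INTs (0.04, distinct pairs with TMM), INTs with TEAp and the proximal Jα genes (0.03, TMM), INTs with Tcrd (0.30 with TMM, 0.23 with DESeq2, 0.27 with distinct pairs and TMM, 0.17 without downstream reads, and -0.06 to 0.01 when leaving out each library) and the most proximal V part with Tcrd (0.04 with TMM, 0.06 with distinct pairs and TMM). Without reads downstream of Eα the log2 ratio was -0.07 for both fragments upstream, 0.46 for both downstream, -0.04 for each side, -0.28 for INTs with V, 0.17 for INTs with Tcrd, -1.03 for Eα with V, -0.07 for any INTs fragment and -0.22 for any proximal V fragment. As a share of all chromosome 14 reads it was -0.33 for both upstream, 0.13 for each side and -0.38 for any proximal V fragment. Without reads of the EACBE fragment it was -0.68 for INTs with Eα and -0.84 for Eα with V. The cause of these differences was not tested, other than the reads left out.

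The replicate numbers did not pair the libraries. With the replicate block the calls were 16 higher and 22 lower single bins, 36 and 6 bin pairs, 10 and 25 segment pairs, 39 and 9 fragments, 3 and 7 bins of 100 kb, and 8 and 4 bins against Trav17. With 3 libraries a group the permutation test cannot go below 0.1, and 3 reads made 0.0039% to 0.0094% of a library's reads in the region.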
